A study of Mus musculus with 6 samples.

Results

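The genes Nkx2-5, Gata4, Gata5, Gata6, Hand1, Hand2, Isl1, Irx4, Zfpm2 and Nr2f2 encode transcription factors of the NK2, GATA, HAND, LIM homeodomain, Iroquois, FOG and COUP-TF families that act in the forming heart chambers. They were listed by symbol, with earlier results of these data known. Each symbol was found in the count data, so that 10 genes of 43629 are described. Expression was measured by RNA-Seq in cardiomyocytes from ventricles of CD-1 mouse embryos at embryonic day 13.5, with 3 cultures given negative siRNA and 3 given DNMT1 siRNA. DNMT1 is the enzyme that copies DNA methylation to the new strand after replication, and the comparison asks how gene expression differs when it is reduced.

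Both groups were made in the same way. Ventricular tissue was pooled by litter and digested with papain, cells that attached early to uncoated plastic were discarded, and the remainder was cultured for 48 h before transfection at 12 nM with Lipofectamine RNAiMAX. The DNMT1 siRNA was a pool of 4 siRNAs and the control was the AllStars negative control siRNA. Cells were collected 72 h later and sorted with magnetic beads for VCAM1, a surface protein of embryonic cardiomyocytes that other cells can carry too, and the libraries held poly(A) RNA. Titles of the treated samples name DNMT1 siRNA, but their treatment tag reads DNMT3a siRNA, and the titles were followed. The labels do not say whether the cultures of a group came from separate litters, so that p-values measure the spread between these samples, which may be technical.

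The negative siRNA libraries had 27852412 to 35896018 reads on genes and the DNMT1 siRNA libraries 13739561 to 16186310, a ratio of medians of 2.09. Of uniquely aligned reads, 14.6 to 17.5% fell outside annotated exons with negative siRNA and 24.4 to 32.0% with DNMT1 siRNA (exact permutation test, two-sided, p = 0.1, the smallest that 3 against 3 allow). Reads that fell on several genes, which were counted for none, were 3.58 to 3.65% with negative siRNA and 6.02 to 6.35% with DNMT1 siRNA (exact permutation test, two-sided, p = 0.1). The part of these differences in the results below was not tested. Dnmt1 stood at 3028 ± 367 normalized counts (SD, n = 3) with negative siRNA and at 741 ± 65.8 with DNMT1 siRNA, which is 24.5% of the control mean. Dnmt3a stood at 118% of its control mean and did not pass the test (FDR = 0.0919), so that the titles rather than the tag match the measured transcript. The labelled cell type was checked against marker genes. All 10 cardiomyocyte markers were expressed. In the control cultures 10 fibroblast and mesenchyme markers together took 4.40% of gene reads, against 0.249% for the cardiomyocyte markers. The 8 epicardium markers took 0.198%. Shares of reads are not shares of cells. Col1a1 alone had a control mean of 504780 normalized counts, where the fibroblast and mesenchyme markers summed to 945310. The paper cites earlier flow cytometry in which nearly all of the sorted cells were cardiomyocytes.

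As background, the cardiac transcription factors work as a network rather than as a chain. Nkx2-5, Gata4, Tbx5 and Hand2 proteins bind near each other at cardiac genes and raise each other's activity, and several of them bind each other directly. Irx4 is known as a ventricular gene that represses atrial genes, and Nr2f2 as an atrial gene that holds back ventricular ones. Gata4, Gata6, Zfpm2, Hand2 and Nr2f2 are also known from epicardial and mesenchymal cells of the heart, so that their transcripts in a mixed culture need not come from cardiomyocytes.

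The starts of 6 of the 10 genes were matched to promoter sequences of RefSeq (build GRCm38.p6), which cover 250 bases before the start and 50 after it. Gata4, Gata6, Hand1 and Zfpm2 were not matched. The runs before the start are printed 5′ to 3′ on the gene's strand for Nkx2-5, Irx4 and Nr2f2, the genes whose levels in a culture were compared with each other, and capitals mark each CG dinucleotide, the base pair step that DNMT1 methylates. They lie at chr17:26841566-26841815 (minus strand), chr13:73260247-73260496 (plus strand) and chr7:70366747-70366996 (minus strand).
Nkx2-5: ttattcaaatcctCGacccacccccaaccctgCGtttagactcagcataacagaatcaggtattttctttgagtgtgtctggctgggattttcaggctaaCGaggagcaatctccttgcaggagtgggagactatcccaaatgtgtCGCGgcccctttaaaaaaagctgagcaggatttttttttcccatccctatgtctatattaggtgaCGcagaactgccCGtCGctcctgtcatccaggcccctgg
Irx4: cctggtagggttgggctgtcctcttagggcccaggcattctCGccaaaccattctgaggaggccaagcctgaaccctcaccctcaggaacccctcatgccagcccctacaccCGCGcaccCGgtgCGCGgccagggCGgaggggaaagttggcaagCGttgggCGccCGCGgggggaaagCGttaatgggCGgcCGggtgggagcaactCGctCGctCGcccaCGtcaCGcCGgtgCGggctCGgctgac
Nr2f2: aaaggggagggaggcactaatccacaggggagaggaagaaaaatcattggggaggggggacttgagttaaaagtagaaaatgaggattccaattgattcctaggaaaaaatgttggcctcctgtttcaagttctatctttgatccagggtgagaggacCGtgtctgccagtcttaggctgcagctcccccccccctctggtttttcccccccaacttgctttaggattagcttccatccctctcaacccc
The Nkx2-5 run holds 8 CG dinucleotides, the Irx4 run 22 and the Nr2f2 run 1. The Nkx2-5 run ends at a RefSeq start that lies 3444 bases inside the gene as GENCODE annotates it, whereas the other 5 starts lie within 20 bases of the annotated end. Over the whole 300-base window Isl1 held 37 CG, Irx4 31, Gata5 26, Hand2 17, Nkx2-5 9 and Nr2f2 2, beside a median of 21 (quartiles 12 and 29) over 10814 tested genes with a promoter. The 2 of these 6 genes with fewer than 10 CG were Nkx2-5 and Nr2f2, and 81.5% of tested genes had 10 or more. Only the matched RefSeq start of each gene was searched. Nr2f2 has 6 annotated transcripts, and any other starts of it were not looked at. The 6 genes thus lay on both sides of the median, and no methylation was measured in the data used here.

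Nkx2-5 and Hand1 were called higher with DNMT1 siRNA, at 1.74-fold and 1.72-fold, and none of the 10 genes was called lower. A gene was called when its FDR was below 0.05 and its fold change above 1.5, and all 10 genes passed the filter on low counts. Counts of genes that rose or fell are counts of called genes. The 2 called genes are 20% of the 10, beside 6.49% of the 15470 tested genes called in either direction. The other 8 genes did not pass, and for 5 of the 10 the 95% interval of the fold change lay wholly within the limits of 1.5-fold. The median log2 fold change of the 10 genes was 0.0062 and that of all tested genes −0.0049, while single genes ran from −0.35 for Nr2f2 to 0.93 for Irx4. Groups did not overlap in normalized count for 6 of the 10 genes (60%), beside 36.0% of tested genes, with DNMT1 siRNA higher for 4 (beside 18.3% of tested genes) and lower for 2 (beside 17.7%). Because these are bulk samples, more cells of a type and more RNA per cell cannot be told apart in any of these values.

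**Figure D1:**
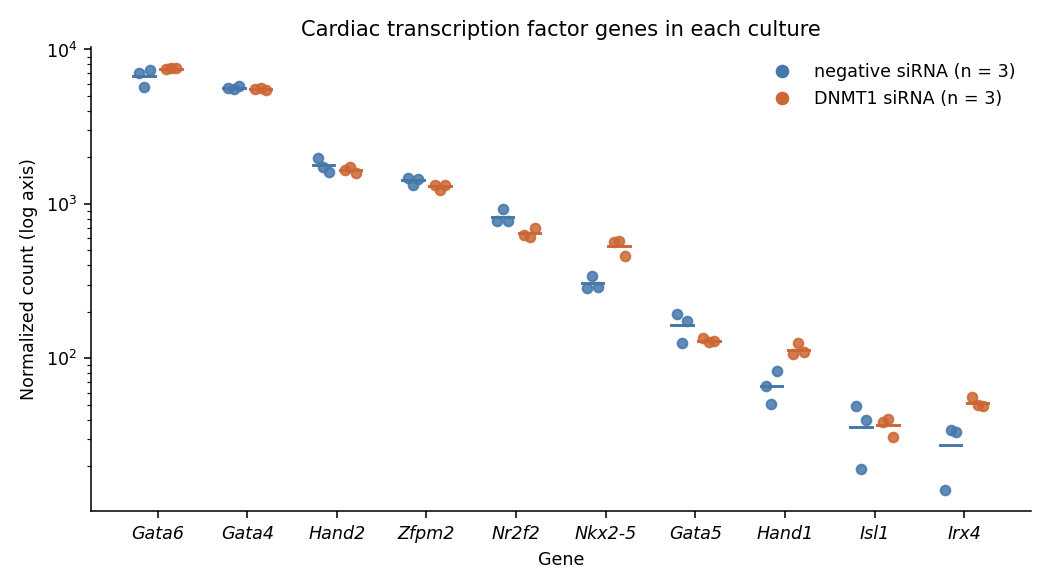
Normalized counts of the 10 genes (log axis) in the 3 negative siRNA cultures (blue) and the 3 DNMT1 siRNA cultures (orange), ordered by control mean; points are cultures and bars are means. Nkx2-5, Hand1, Irx4 and Gata6 have all 3 DNMT1 siRNA cultures above all controls, and Nr2f2 and Zfpm2 have them below.

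Nkx2-5 (ENSMUSG00000015579, GRCm38 chr17:26838664-26845009, minus strand) encodes the NK2 homeodomain factor that marks cardiac progenitors and myocytes. Its normalized counts, which are reads scaled to a common library size, were 285, 343 and 291 with negative siRNA and 569, 576 and 458 with DNMT1 siRNA. The lowest treated culture lay above the highest control. The mean rose from 306 ± 32.0 to 534 ± 66.0 (SD, n = 3), a log2 fold change of 0.80 with a standard error of 0.12 and a 95% interval of 0.52 to 1.09 (edgeR's quasi-likelihood test, Benjamini-Hochberg FDR = 0.00658). The interval of the fold itself was 1.43 to 2.12 and reached below 1.5, and the gene was not called by glmTreat, the edgeR test against a fold change of 1.5 (FDR = 0.398). Without the second DNMT1 siRNA culture the log2 fold change was 0.74 and the FDR 0.0506.

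The GATA factors are zinc finger proteins that bind the GATA box, and Gata4 and Gata6 share roles in myocyte growth. Gata4 (ENSMUSG00000021944, chr14:63198922-63271692) stood at 5624, 5511 and 5792 in the controls and at 5546, 5659 and 5448 with DNMT1 siRNA. The groups overlapped, the log2 fold change was −0.02 ± 0.06 (SE), and its interval of −0.16 to 0.11 was the narrowest of the 10. Gata4 was thus measured to within a fold change of 0.894 to 1.08.

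Gata6 (ENSMUSG00000005836, chr18:11052064-11085635) had 7025, 5735 and 7355 normalized counts in the controls and 7519, 7534 and 7531 in the treated cultures. All treated cultures lay above all controls, but the second control stood well below the others and the log2 fold change of 0.17 (interval −0.05 to 0.39) did not pass the test (FDR = 0.289). The treated cultures differed by less than counting error alone would give, with a coefficient of variation of 0.112% against a counting error of 1.40%, so that their spread does not describe the precision of the gene. On the opposite strand, 1010001N08Rik overlaps the first bases of Gata6. It stood at 162 ± 37.2 in the controls and at 240.3 ± 8.11 with DNMT1 siRNA without overlap of the groups, and did not pass the test (log2 fold change 0.57, FDR = 0.0729). The library kit did not mark strand, so that reads of overlapping antisense genes cannot be told apart. Gata5, Gata6, Hand2 and Nr2f2 each overlap such a gene. What the larger share of reads on several genes with DNMT1 siRNA did to their counts was not tested.

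Gata5 (ENSMUSG00000015627, chr2:180325133-180334699), which is known from the endocardium, was far less abundant than Gata4 and Gata6. It stood at 194, 125 and 174 in the controls and at 135, 127 and 129 with DNMT1 siRNA. The second control lay below every treated culture and the other two above, and the log2 fold change of −0.34 ± 0.18 (SE; interval −0.75 to 0.08) did not pass (FDR = 0.262). Its antisense neighbor Gata5os was too low to test.

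Zfpm2 (ENSMUSG00000022306, chr15:40655035-41104592) encodes FOG2, a cofactor that binds GATA4 and alters its activity. It had 1473, 1334 and 1457 normalized counts in the controls and 1329, 1235 and 1328 with DNMT1 siRNA. The treated cultures lay below the controls, though the nearest pair was almost level, and the log2 fold change of −0.13 (interval −0.30 to 0.04) did not pass (FDR = 0.273). Relative to Gata4 in the same culture, the log2 ratio of Zfpm2 was −3.28 ± 0.06 in the controls and −3.39 ± 0.09 with DNMT1 siRNA, and the groups overlapped.

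The HAND genes encode related basic helix-loop-helix factors. Hand2 is known from the right ventricle and the epicardium, and Hand1 from the outer curvature of the left ventricle. Hand1 (ENSMUSG00000037335, chr11:57828705-57832818) had 65.9, 50.3 and 82.4 normalized counts in the controls and 107, 125 and 109.6 with DNMT1 siRNA. The groups did not overlap, and the mean rose from 66.2 ± 16.1 to 114 ± 9.84 (SD, n = 3). The log2 fold change was 0.79 with a standard error of 0.21 and an interval of 0.30 to 1.27 (edgeR's quasi-likelihood test, FDR = 0.0457), close to the limit. Between 67 and 113 reads per culture stood behind these values, for a counting error near 10.3% per control culture and 11.4% per treated one. The call was lost in 4 of the 6 fits that left out a culture, namely without the first control (FDR = 0.0741) and without each of the DNMT1 siRNA cultures in turn (FDR = 0.128, 0.186 and 0.136), with log2 fold changes between 0.63 and 0.97 over all 6. It was also lost with glmTreat (FDR = 0.918) and with the replicate number as a block (log2 fold change 0.81, FDR = 0.0793).

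Hand2 (ENSMUSG00000038193, chr8:57320983-57324633) was more abundant, with 1986, 1746 and 1621 normalized counts in the controls and 1663, 1739 and 1589.7 with DNMT1 siRNA. The groups overlapped and the log2 fold change of −0.10 (interval −0.30 to 0.10) did not pass (FDR = 0.487). Hand2os1, the antisense gene that overlaps it, stood at 206 ± 28.9 and 235 ± 31.3 with a log2 fold change of 0.19 that did not pass either (FDR = 0.454). The log2 ratio of Hand1 to Hand2, in counts per kilobase of exon within a culture, was −4.54 ± 0.43 in the controls and −3.63 ± 0.08 with DNMT1 siRNA, so that the ratio was 1.87-fold higher in the treated cultures without overlap.

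Isl1 (ENSMUSG00000042258, chr13:116298281-116309689) encodes the LIM homeodomain factor of second heart field progenitors, which ventricular myocytes have largely shut off. It was among the lowest of the 10 genes, with 49.0, 19.3 and 39.7 normalized counts in the controls and 38.9, 40.8 and 31.1 with DNMT1 siRNA. The controls spanned the treated cultures on both sides. Its log2 fold change of 0.04 had an interval of −0.78 to 0.85, which includes a change of 1.5-fold in either direction. The coefficient of variation of the controls was 42.2%, above their counting error of 14.6%.

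Irx4 and Nr2f2 stand for the ventricular and the atrial side. Irx4 (ENSMUSG00000021604, chr13:73260479-73269608) had 14.0, 34.5 and 33.4 normalized counts in the controls and 56.3, 49.6 and 49.1 with DNMT1 siRNA. Every treated culture lay above every control, and the first control lay far below the other controls. The log2 fold change of 0.93 was larger than that of the called genes, but its standard error was 0.35 on 24 to 50 reads per culture, and it did not pass (interval 0.13 to 1.73, edgeR's quasi-likelihood test, FDR = 0.119). Without the first control it was 0.61 (FDR = 0.128). The gene was called in the fit with no filter on low counts (FDR = 0.0351) and in no other of the 15 alternatives.

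Nr2f2 (ENSMUSG00000030551, chr7:70351944-70366735) encodes the orphan nuclear receptor COUP-TFII. It had 775, 933 and 774 normalized counts in the controls and 632, 612 and 703 with DNMT1 siRNA. All treated cultures lay below all controls, and the log2 fold change of −0.35 ± 0.10 (SE; interval −0.58 to −0.12) missed both limits (edgeR's quasi-likelihood test, FDR = 0.0594). Its FDR was below 0.05 with DESeq2 (0.0277), with edgeR's exact test (0.0445) and with no filter (0.00844), but the fold change stayed under 1.5 in each. B130024G19Rik, the antisense gene that overlaps Nr2f2, had 18.0 ± 5.26 and 19.3 ± 5.76 normalized counts and did not pass (FDR = 0.881).

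**Figure D2:**
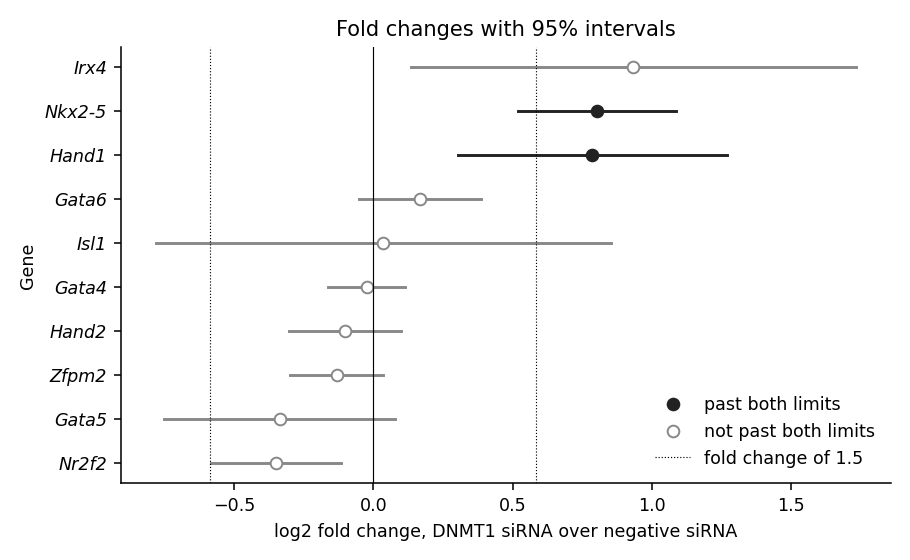
Log2 fold changes of the 10 genes (DNMT1 siRNA over negative siRNA, points) with 95% intervals from edgeR's quasi-likelihood fit (lines), where filled points passed both limits and dotted lines mark a fold change of 1.5. The intervals of Irx4 and Isl1 are the widest and that of Gata4 the narrowest, and those of Nkx2-5 and Hand1 lie above 0 but extend below the 1.5-fold line.

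Levels of the genes were compared per kilobase of exon. In the controls Gata4 stood highest at 1445 ± 36.2 normalized counts per kilobase (SD, n = 3), followed by Gata6 at 1030.3 ± 132, Hand2 at 759 ± 79.1, Nkx2-5 at 178 ± 18.6, Zfpm2 at 149 ± 7.98 and Nr2f2 at 95.9 ± 10.6. Gata5 followed at 50.2 ± 10.8, Hand1 at 33.2 ± 8.04, Irx4 at 10.5 ± 4.42 and Isl1 at 9.09 ± 3.84, a range of 159-fold. The ranges of neighbors in this order did not overlap, except for those of Gata5 and Hand1 and those of Irx4 and Isl1. With DNMT1 siRNA the order was the same but for Hand1, which stood at 57.1 ± 4.93 per kilobase and so above Gata5 at 39.8 ± 1.36. Parts of this order rested on the exon length used. Per kilobase of the longest transcript, Gata6 stood at 1772 and Gata4 at 1659 in the controls. By this length Zfpm2 at 245 also stood above Nkx2-5 at 201, and Isl1 at 14.3 above Irx4 at 10.5. With DNMT1 siRNA it gave 350 for Nkx2-5 and 224 for Zfpm2, and 19.9 for Irx4 and 14.7 for Isl1.

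Ratios within a culture do not depend on library size or normalization. Of the summed counts per kilobase of Gata4, Gata5 and Gata6, Gata4 took 55.9, 60.6 and 55.6% in the controls and 54.3, 54.8 and 53.8% with DNMT1 siRNA. Gata6 took 41.9, 37.8 and 42.4% in the controls and 44.1, 43.8 and 44.6% with DNMT1 siRNA. The Gata4 share was thus lower and the Gata6 share higher in all treated cultures, with differences of −3.05 and 3.50 percentage points, and of −1.44 and 2.07 without the second control. That Gata4 took the largest share rested on the exon length used, since per kilobase of the longest transcript Gata6 stood above it in the controls (1772 and 1659). The difference of the Gata4 share by that length was −3.23. Gata5 took 1.98% ± 0.33 and 1.52% ± 0.06 (SD, n = 3).

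Nkx2-5 stood against Gata4 at a log2 ratio of −3.02 ± 0.18 in the controls and −2.20 ± 0.16 with DNMT1 siRNA, 1.77-fold higher. Against Nr2f2 its log2 ratios were 0.89, 0.89 and 0.92 in the controls and 2.18, 2.24 and 1.71 with DNMT1 siRNA, 2.21-fold higher. The controls were nearly alike and every treated culture lay above them. The log2 ratio of Nr2f2 to Irx4, the atrial to the ventricular factor, was 4.06, 3.03 and 2.81 in the controls and 1.76, 1.90 and 2.12 with DNMT1 siRNA. It was lower in all treated cultures, with a mean difference of −1.38, and of −0.99 without the first control. Of 9 shares and ratios compared, 8 did not overlap between the groups. Each of the 8 had p = 0.1 (exact permutation test, two-sided, the smallest that 3 against 3 allow) and an adjusted p of 0.113. None could therefore pass a limit of 0.05 in this design. The 9 measures reuse the same few genes and are not independent, and they were chosen with earlier results of these data known. Of single tested genes, 36.0% did not overlap between the groups.

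**Figure D3:**
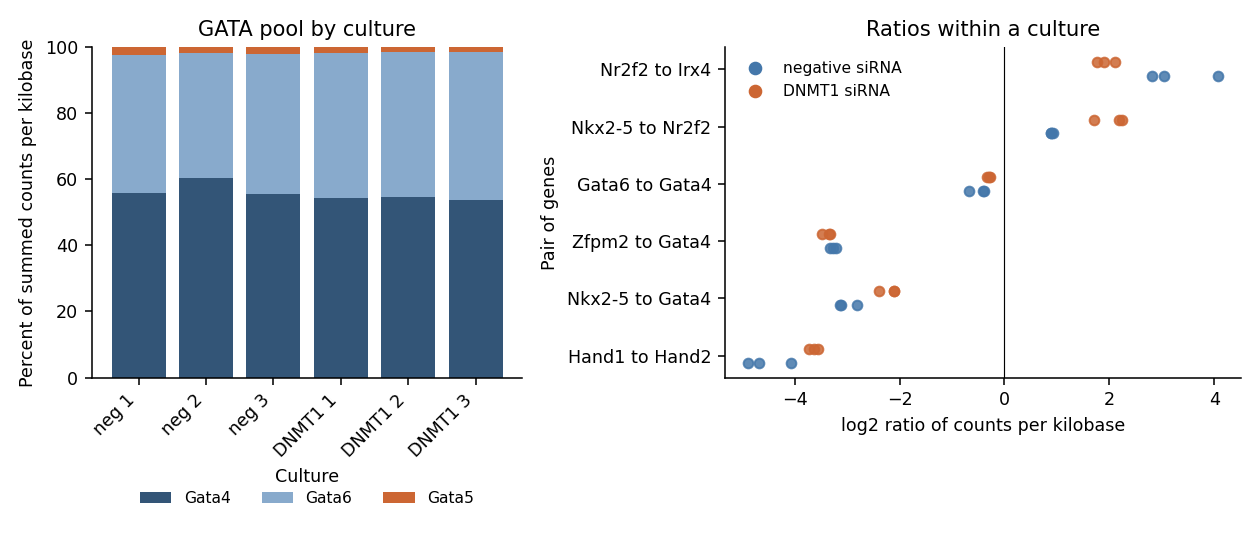
Left, percent of the summed counts per kilobase of Gata4, Gata5 and Gata6 taken by each gene in each culture; right, log2 ratios of counts per kilobase for 6 pairs of genes, with points for the negative siRNA (blue) and DNMT1 siRNA (orange) cultures. Gata4 takes 53.8 to 60.6% of the GATA pool per kilobase of all exons joined, a share that depends on the exon length used. Only the Zfpm2 to Gata4 ratio overlaps between the groups among the pairs shown.

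Other members of the same families were followed in a list of 19 genes, of which 12 were high enough to test. Irx3 and Irx5, Iroquois genes that regulate repolarization and conduction in the ventricle, rose and none fell, beside 4.26% of tested genes called higher and 2.23% lower. Irx3 had 95.7 to 167 normalized counts in the controls and 278 to 349.8 with DNMT1 siRNA, and its log2 fold change was 1.21 ± 0.21 (SE, FDR = 0.00974). Irx5 went from 79.3 to 149 (log2 fold change 0.92 ± 0.22, FDR = 0.0313). Neither overlapped between groups. The other 10 tested relatives, among them Gata2, Gata3, Zfpm1, Nr2f1 and Irx2, did not pass, and the median of the 12 was 0.04. No relative was called without the first or without the second DNMT1 siRNA culture.

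Of 16 genes for partner factors, proteins that act with the 10 factors at cardiac genes, 3 rose and 1 fell. That is 25% called, beside 6.49% of all tested genes (4.26% higher and 2.23% lower). Tbx20, a T-box factor of the chamber myocardium, rose from 12667 to 22102 normalized counts (log2 fold change 0.80, FDR = 0.0281). Myocd, the coactivator of serum response factor, rose by 0.59 on the log2 scale (FDR = 0.0361), and Hopx, a homeodomain-only protein that acts with that factor, rose by 1.37 from 89.9 to 231 (FDR = 0.0252). Tbx2, a T-box repressor of chamber genes in the atrioventricular canal, fell from 222 to 129 (log2 fold change −0.78, FDR = 0.0221). Tbx5, Mef2c, Srf and the other 9 did not pass, and Tbx5 stood at 135 and 164. None of the 16 was called higher without the third control or without the first or second DNMT1 siRNA culture, and Tbx2 was not called without any of the DNMT1 siRNA cultures or with the replicate block.

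Target genes, described in the literature as bound and controlled by a member of the network in heart cells, were mostly higher with DNMT1 siRNA. Of 24 listed genes 23 were tested, 16 rose and none fell (69.6%, beside 6.49% of tested genes called), with a median log2 fold change of 1.28 where that of all tested genes was −0.0049. The genes that rose were Nppa, Nppb, Myh6, Actc1, Tnnc1, Tnni3, Gja5, Myocd, Ankrd1, Smyd1, Hopx, Chrm2, Adora1, Corin, Ryr2 and Atp2a2, which include natriuretic peptides, sarcomere proteins, calcium handling proteins and receptors. Slc8a1, Mef2c, Kcnh2 and the growth genes Ccnd2, Cdk4, Bcl2 and Id2 did not pass. Without the first DNMT1 siRNA culture 10 of them were called, the fewest over the fits that left out a culture. The list is no independent measure of the factors, since earlier results of these data were known when it was written, and 4 of its genes are also in the cardiomyocyte marker list. Myocd, Mef2c and Hopx are in the partner list too, and Nppa and Gja5 in the atrium list below. The counts of these lists are therefore not separate results.

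The largest changes of the list were those of Nppb and Corin, which encode the B-type natriuretic peptide and the protease that activates natriuretic peptides. Nppb had 122, 162 and 171 normalized counts in the controls and 1085, 955 and 759 with DNMT1 siRNA (log2 fold change 2.63 ± 0.17 (SE), FDR = 0.000321). Corin had 17.5, 17.9 and 14.8 against 76.4, 37.9 and 47.4 (log2 fold change 1.68 ± 0.31, FDR = 0.0139). The Nppb groups lay far apart. Those of Corin did not overlap either, but the gene had only 187 reads over all libraries and its treated cultures spread from 37.9 to 76.4. In both genes the fold change was above that of Nkx2-5, the highest called factor.

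The runs before the starts of Nppa and Nppb are printed because the natriuretic peptide promoters are classic targets of the NK2 and GATA factors. They lie on the plus strand of GRCm38.p6 at chr4:148000472-148000721 and chr4:147985650-147985899, and capitals mark the NK2 element AAGTG and the GATA box (the word AGATAA, its variant ending in G, or either with a first T), searched on both strands.
Nppa: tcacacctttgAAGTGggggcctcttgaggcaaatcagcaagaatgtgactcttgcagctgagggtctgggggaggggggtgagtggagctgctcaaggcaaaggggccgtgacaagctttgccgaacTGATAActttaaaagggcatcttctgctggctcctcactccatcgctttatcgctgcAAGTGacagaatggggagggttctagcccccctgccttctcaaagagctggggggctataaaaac
Nppb: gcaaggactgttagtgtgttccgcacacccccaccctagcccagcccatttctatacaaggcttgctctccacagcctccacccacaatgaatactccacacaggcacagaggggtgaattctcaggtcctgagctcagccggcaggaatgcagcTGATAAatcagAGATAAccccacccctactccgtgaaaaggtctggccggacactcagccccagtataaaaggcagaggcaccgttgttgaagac
The Nppa run holds 2 NK2 elements, whose first bases lie 239 and 65 bases before the start, and 1 GATA box at 122 bases. The Nppb run holds 2 GATA boxes at 95 and 84 bases and no NK2 element. Such short motifs are common. Of 32851 promoter windows of the same 300 bases, 46.4% held an NK2 element and 29.8% a GATA box, and of the promoters of tested genes 42.3% and 18.4%. In the first listed promoter of each gene, 6 of the 21 target genes with a promoter held an NK2 element and 6 a GATA box, and counting every listed promoter of a gene gave 7 and 6. A match describes the letters only and not binding. In the first listed promoter the targets had a median of 7 CG and 8 of 21 genes held 10 or more (9 with every listed promoter), where 81.5% of tested genes had that many.

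**Figure D4:**
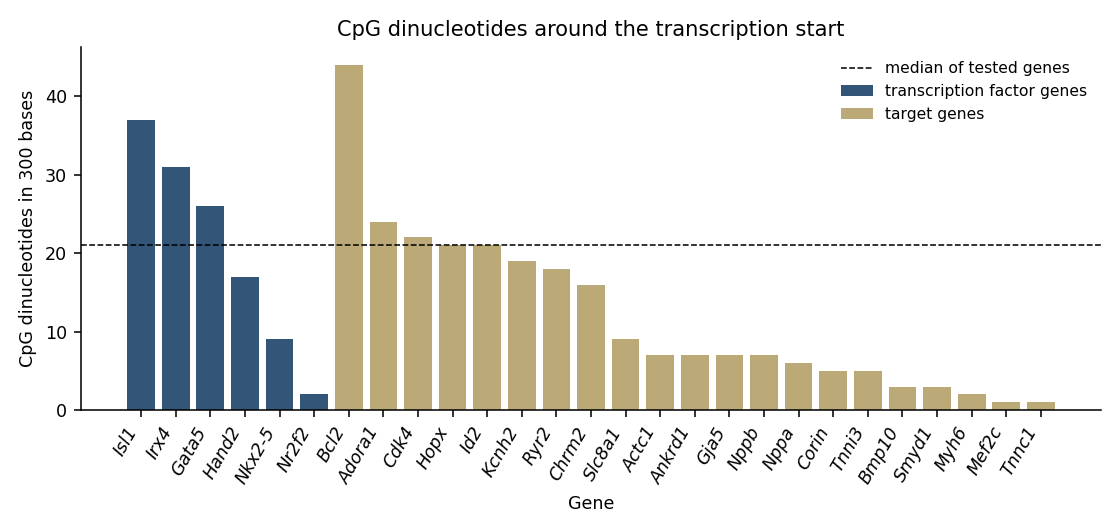
Number of CpG dinucleotides in the 300 bases around the RefSeq start, for the 6 transcription factor genes (blue) and 21 target genes (tan) with a promoter sequence, with the median of tested genes as a dashed line. Isl1, Irx4 and Gata5 lie above the median of 21 and Nkx2-5 and Nr2f2 far below, as do most target genes.

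Genes of the ventricle and of the atrium were listed apart, because Irx4 and Nr2f2 belong to opposite sides. Of 12 ventricle genes 3 rose and none fell: Pln, the inhibitor of the calcium pump, Gja1, a gap junction protein, and Myl2, the ventricular regulatory light chain, with log2 fold changes of 1.12, 0.77 and 0.77 (FDR = 0.00796, 0.000837 and 0.0418). Of 12 tested atrium genes 4 rose and 2 fell. Called genes were thus 25% of the ventricle list and 50% of the tested atrium list, beside 6.49% of all tested genes (4.26% higher and 2.23% lower). Nppa, the atrial natriuretic peptide, rose by 1.65 on the log2 scale from 948 to 2983 normalized counts and Gja5, an atrial and conduction gap junction protein, by 1.28 from 23.9 to 57.8 (FDR = 0.0023 and 0.0292), and Myl4 and Pam also passed. Hey1, a Notch target and atrial repressor, fell by 2.26 from 17.1 to 3.48 on few reads, and Dkk3, a secreted protein, by 1.58 from 2261 to 756 (FDR = 0.0357 and 0.0065). Both lists thus held genes that rose, and the medians were −0.01 for the ventricle and 0.36 for the atrium list. Leaving out a culture gave 2 to 6 ventricle genes higher, with 6 without the second control, and 1 lower without the first control, as with DESeq2, the exact test and no filter. It gave 2 to 5 atrium genes higher, with 2 without the first or the second DNMT1 siRNA culture, and 1 lower in each case but the first control.

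Markers of the cell types in the culture moved with these genes. Each count of called markers stands beside 4.26% of all tested genes called higher and 2.23% called lower. The 10 cardiomyocyte markers summed to 46816 to 61394 normalized counts in the controls and 110630 to 135770 with DNMT1 siRNA, 2.35-fold higher in the mean, and 8 of 10 rose, with the largest changes in Ttn (1.98) and Ryr2 (1.60), and Myh7 and Tnni1 not past the test. Nkx2-5, at 1.74-fold (interval 1.43 to 2.12), and Hand1, at 1.72-fold (interval 1.23 to 2.41), lay below this ratio of sums. The interval of Hand1 included the ratio, however. Single markers ran from 0.88-fold for Tnni1 to 3.94-fold for Ttn, so that some lay below both genes and others above. The endothelium and endocardium markers summed to 3510 to 4366 and 7063 to 7165 normalized counts, and 3 of 10 rose: Kdr (0.91), Emcn (1.38) and Npr3 (2.74). Tek, named after its values were seen, went the other way without overlap of the groups (log2 fold change −0.35, FDR = 0.0373) but stayed under the fold limit. The count of 3 was 7 without the second control and with no filter, 5 with DESeq2, and 1 without the third control or any of the DNMT1 siRNA cultures. Npr3, the clearance receptor of natriuretic peptides, is known from the endocardium, and it went from 333 to 2232 normalized counts.

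The fibroblast and mesenchyme markers summed to 787300 to 1212600 in the controls and 597680 to 637630 with DNMT1 siRNA, and 4 of 10 fell, namely Col1a1 (−0.65), Col1a2 (−0.69), Dcn (−0.64) and Fbln1 (−1.19). Of all tested genes 2.23% were called lower. The count of 4 was 2 with the replicate block, without the second control and without the first DNMT1 siRNA culture. It was 1 without the second or the last DNMT1 siRNA culture. The smooth muscle and pericyte sum was 118090 to 175020 and 99002 to 103130, with Pdgfrb lower (−0.62) among 7 tested. The count lower was 0 without the second DNMT1 siRNA culture and 3 without the first control. Rgs5 went from 72.6 to 158 without overlap of the groups but did not pass (log2 fold change 1.10, FDR = 0.111), where the list median was −0.51. The epicardium sum of 39167 to 45527 and 43172 to 45033 overlapped, with Krt19 lower (−0.82) among 8, a call lost without the third control or any of the DNMT1 siRNA cultures. No macrophage marker of 7 tested was called (sums 239 to 666 and 205 to 335), although their median log2 fold change of −0.96 was the lowest of the lists. DESeq2, the exact test, the fit with no filter and that without the first control each called 4 of them lower, the replicate block 3 and the thinned libraries 2. The most abundant, Csf1r, stood at 145 and 74.4, and C1qa and Adgre1 had log2 fold changes of −1.96 and −1.71 (FDR = 0.0655 and 0.0576). The C1qa groups overlapped. Cd68 went the other way, from 89.6 to 101.5 (log2 fold change 0.18, FDR = 0.709). Of the red cell markers only Alas2 was high enough to test (18.5 and 43.4, not past the test), and the globin genes were at or near 0. The part of these cell type shifts in the values of Nkx2-5, Hand1, Nr2f2 and the target genes was not tested.

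**Figure D5:**
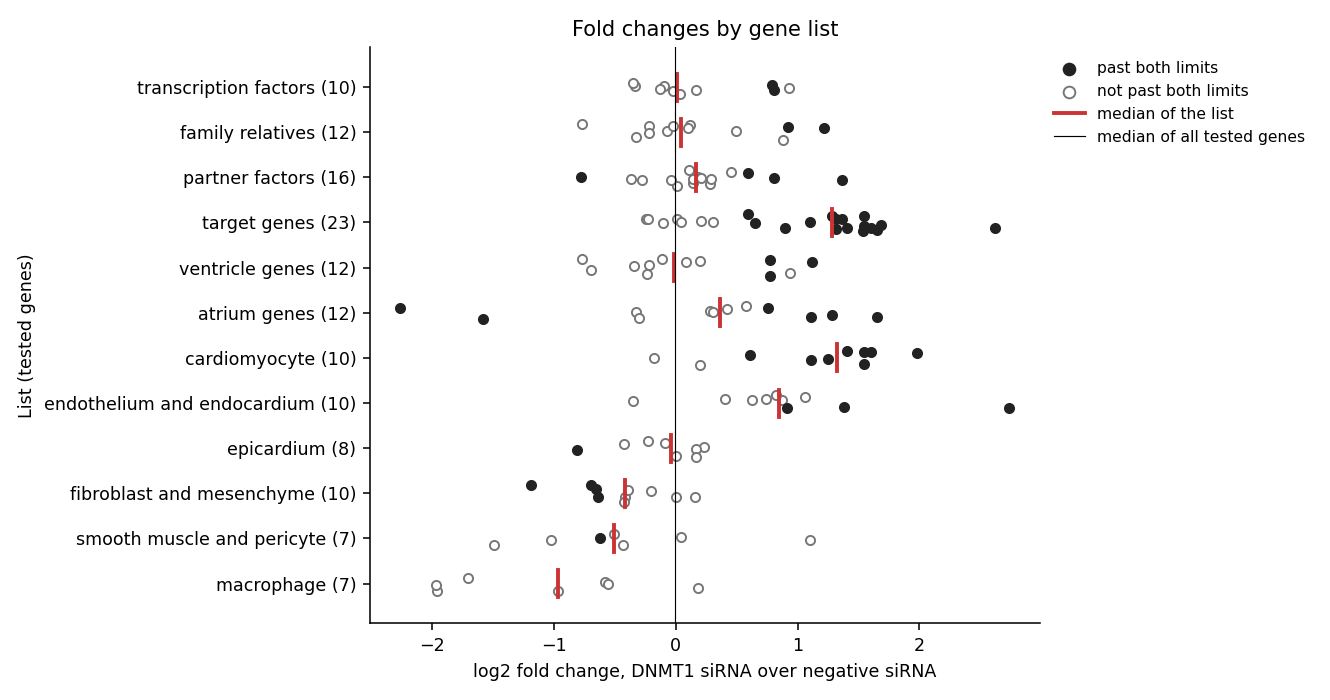
Log2 fold changes (DNMT1 siRNA over negative siRNA) of the tested genes of each list, with the number of genes in parentheses; filled points passed both limits, red bars are list medians and the thin line is the median of all tested genes. The 10 transcription factors have a median of 0.0062, whereas the target genes have a median of 1.28 and the cardiomyocyte markers 1.33.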

How the data were processed

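RNA-Seq was done on 3 cultures per treatment. The authors checked reads with FastQC, aligned them to the mouse genome (mm10, GRCm38) with TopHat2 and assigned them to Ensembl genes with HTSeq (versions not given in the sources used here), and deposited raw counts for 43629 genes, with no normalization. The counter's own totals of reads on no gene or several genes were kept out of library sizes. Whether strand was used in counting is not given in the sources used here.

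Counts were tested with edgeR 4.0.16 in R 4.3.3 (quasi-likelihood test, TMM normalization, filterByExpr with a minimum count of 10 and a minimum total of 15, Benjamini-Hochberg adjustment over 15470 genes). Genes with FDR below 0.05 and fold change above 1.5 were called. Standard errors were the log2 fold change over the square root of F. Normalized counts are reads scaled to the geometric mean of the TMM-adjusted library sizes, and levels per kilobase used the union of exons in GENCODE M21, which holds 42548 of the genes and is newer than the authors' annotation. Ratios were tested by exact permutation with scipy 1.17.1. Figures used matplotlib 3.10.9. Scripts were tested on simulated counts.

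The 10 genes, the lists and the tests were chosen with earlier results of these data known. Named genes were the 10 genes, Dnmt1, Dnmt3a and Dnmt3b, genes overlapping a member or starting within 5 kb, and from each other list all called genes where 4 or fewer, otherwise the 2 largest changes in each direction, or the most abundant gene where none was called. Names of further list genes were added after their values were seen. Replicate files differed by more than counting error (chi-square per degree of freedom 2.89 to 59.7), and none was counted as a copy of another. Alternatives were DESeq2 1.42.0, edgeR's exact test, glmTreat, RLE normalization, other filters on low counts, removal of short non-coding, ribosomal and mitochondrial genes, thinning of the larger libraries, a replicate block, omission of each culture, and other exon lengths.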

Additional observations from a re-analysis of the deposited data

How the results depend on the processing

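With glmTreat, which tests against a fold change of 1.5, 0 of the 10 factors, 140 genes higher and 36 lower were called, and 7 genes higher and 0 lower of the family, partner, target and chamber lists, where the reported test gave 2, 659, 345, 24 and 3. With no filter on low counts 994 genes were called higher and 701 lower, and with no limit on fold change 1054 and 874, with 5 list genes lower. Leaving out a culture gave 0 to 2 factors higher, 255 to 823 genes higher and 112 to 472 lower over all genes, and 13 to 30 list genes higher and 1 to 4 lower. The lowest counts over all genes came without the second DNMT1 siRNA culture, and list genes higher were fewest without the first. That each such fit has fewer samples is part of its construction, and the cause was not tested further. Isl1 ranged from −0.26 to 0.34 without a culture and reversed without the second control (−0.26) and without the first or second DNMT1 siRNA culture (−0.03 and −0.04), and the other 9 factors kept their direction in all 15 alternatives. DESeq2, the exact test, RLE normalization, a minimum of 10 counts in every sample and removal of short non-coding, ribosomal and mitochondrial genes left 2 factors called, as did thinning the reads on genes of the control libraries, which leaves the shares of reads outside genes unequal. With no filter 3 were called, Irx4 among them.

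The replicate numbers showed no pairing of the cultures. Deviations from the group means correlated at 0.01, −0.02 and 0.03 between same-numbered cultures (−0.08 to 0.07 between others). With 3 cultures per group these correlations constrain each other and cannot settle whether cultures shared a litter or day. With the replicate block 1 factor, Nkx2-5, was called (Hand1 FDR = 0.0793), beside 513 genes higher and 285 lower over all genes. Genes under 100 normalized counts, Hand1, Isl1 and Irx4, had the widest intervals.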
